A study of Bos taurus with 10 samples.

Results

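The 10 genes described here mark cells and fluids that could have come along with bovine embryos when these were washed out of the uterus: leukocytes (LYZ, PTPRC, ITGB2 and S100A8), red blood cells (HBA and HBB), the lining and secretions of the oviduct and uterus (CLU and OVGP1) and connective tissue (COL1A1 and COL1A2). Their probes were found by the gene name in the array's own annotation, and HBA also by its description as haemoglobin alpha. This gave 31 of 43653 probes. The genes had been chosen by how often their probes were detected on the arrays of each group, so the detection counts and the levels against vehicle given here are a description and carry no test.

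Superovulated cows received an intravenous infusion for 2 h, started 48 h after the start of superovulation treatment, and were inseminated with frozen and thawed semen at 108 and 120 h. Embryos were flushed from the uterus without surgery 7 days after the first insemination. The vehicle group received DMSO (n = 2 samples), and the other groups received senktide at 30 nmol/min (n = 4, senktide30) or at 300 nmol/min (n = 4, senktide300). Senktide is a peptide that activates the neurokinin 3 receptor, and the comparison asks whether infusing it into the donor cow alters the embryo's transcripts. Breed, age and number of cows are not given in the labels used here, nor is the number of embryos in a sample. Replicates may therefore be technical, and a p-value covers no more than the spread among them. The labels name embryos as the tissue, while the extraction text speaks of endometrial samples.

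Each sample was hybridised to 1 single-colour bovine array. The share of spots well above background, the scanner software's flag for a signal clearly over the local background, was 7.17% and 9.44% in the vehicle arrays. It was 8.77% to 19.6% in the senktide30 arrays and 10.47% to 19.6% in the senktide300 arrays. The arrays lay on 3 slides. On slides 1 and 2 lay replicate 1 and replicate 2 of all groups, and on slide 3 replicates 3 and 4 of both senktide doses, without vehicle. All 4 arrays of slide 3 stood apart, with 18.3% to 19.6% of spots well above background, against 7.17% to 13.2% on slides 1 and 2. Signals were scaled to each array's 75th percentile over the 2491 probes that passed this flag on every array, and the 8938 probes that passed it on at least 2 arrays were tested. Genes of the labelled tissue were detected: KRT8 and KRT18, keratins of the outer cell layer, GATA3, a regulator of that layer, and SOX2, a regulator of the inner cell mass, each had a probe well above background on all 10 arrays. GATA3 was detected by 1 of its 2 probes and SOX2 by 1 of its 3, the latter at signals of 24.3 to 94.2. Whether other cells contributed to these signals was not tested. CDX2 and NANOG, singled out after their values were seen, were the 2 of 12 embryo genes well above background on no array. Other genes of that list passed on part of the arrays only. In vehicle, senktide30 and senktide300 these were 0, 2 and 2 arrays for POU5F1, 1, 0 and 0 for TFAP2A, and 1, 4 and 4 for IFNT3.

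PTPRC (CD45) is a phosphatase on the surface of leukocytes, and ITGB2 (CD18) is the beta chain that leukocyte integrins share. LYZ encodes lysozyme, an antibacterial enzyme of phagocytes and of secretory epithelia, and S100A8 is an abundant calcium-binding protein of neutrophils, the cells that enter the uterus after insemination. HBA and HBB encode the chains of adult haemoglobin. CLU (clusterin) is a secreted chaperone made by many epithelia, OVGP1 is the glycoprotein of oviduct fluid, and COL1A1 and COL1A2 are the chains of type I collagen, which stromal fibroblasts make.

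The probe sequences that the results turn on are shown first, as the array file gives them, with coordinates of the HGSC Btau_3.1 build named in the file headers. The files give no exon or untranslated region for a probe, so each is placed by its first base in the transcript. The pair below is shown because the detected LYZ probe, which starts at base 745 (chr5:48057332-48057391, minus strand), shares a run of 26 bases, in capitals, with the probe of TC319485, a transcript without a gene name (chr16:32522880-32522938, minus strand).
LYZ 745: ccCCCACTCCAGTACTCTTGCCTGGAAAat
TC319485: gcaaCCCACTCCAGTACTCTTGCCTGGAAA
The detected PTPRC probe, which starts at base 3598 (chr16:76032484-76032543, plus strand), holds a TG repeat, in capitals.
PTPRC 3598: tagtcttTGTGTGTGTGTGTGTGTGTGTGa
Of the pair of ITGB2 probes that overlap by 54 of 60 bases, only the one at base 2739 (chr1:146784453-146784512, plus strand) was detected. The one at base 2733 (chr1:146784447-146784506, plus strand) was not. Capitals mark the 6 bases that each holds outside the overlap, in its first or last 30 bases.
ITGB2 2739: atccccttggttatgctgcccccaATCAAT
ITGB2 2733: TTATTTatgtgtgaacttctcagggtatga
The detected CLU probes, at base 1543 (chr8:11291544-11291603, minus strand) and base 1577 (chr8:11291513-11291569, minus strand), overlap by 26 bases and differ there by 1 base, in capitals, which is G10A counted from the first base of the overlap, with the probe at base 1543 given first.
CLU 1543: tcacgggaaGaacttgctcgcatgcc
CLU 1577: tcacgggaaAaacttgctcgcatgcc
The haemoglobin probes lie in different parts of their transcripts. That of HBA starts at base 497 (chr25:673407-673466, plus strand) and holds the polyadenylation signal, in capitals. That of HBB starts at base 58 (chr15:47825720-47825779, plus strand), near the transcript's 5′ end.
HBA 497: cacctcctgatctttgAATAAAgtctgagt
HBB 58: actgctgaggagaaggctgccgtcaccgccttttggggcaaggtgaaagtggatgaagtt

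Of the 10 genes, 2 had a probe well above background on a vehicle array (LYZ and CLU), against 18.5% of all 15823 named genes. In each senktide group 6 had one (LYZ, PTPRC, ITGB2, HBA, CLU and COL1A2), against 35.5% of named genes in senktide30 and 36.8% in senktide300. S100A8, HBB, OVGP1 and COL1A1 passed the flag on no array. By probe, 8 of the 31 (25.8%) were well above background on at least 1 array, against 25.6% of all probes. Over all arrays this was 39 of 310 pairs of a probe and an array, or 12.6%, against 13.7% for all probes. These shares of probes are close to those of the array as a whole. The 6 of 10 genes in each senktide group are above the share of named genes, where a gene counts if any of its probes passed. As the 10 genes were chosen by their detection and hold 31 probes, no result is read from this. The 23 other probes had signals of 1.96 to 17.1 and passed the flag on no array.

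**Figure D1:**
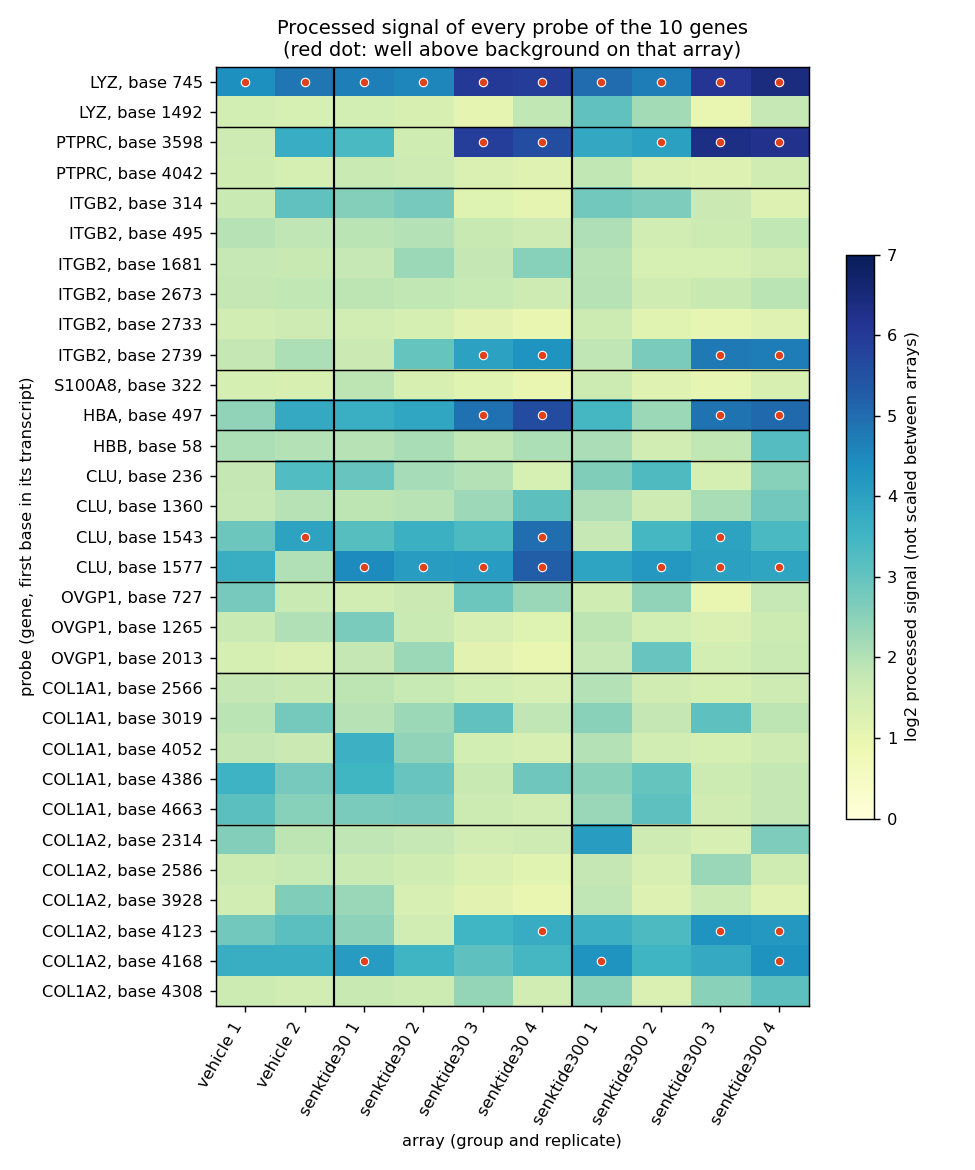
Log2 processed signal of all 31 probes (rows, by gene and first base in the transcript) on the 10 arrays (columns, by group), with a red dot where the probe was well above background. Dots fill the LYZ row at base 745 and otherwise lie mostly on replicates 3 and 4 of the senktide groups, while S100A8, HBB, OVGP1 and COL1A1 have none.

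Among the leukocyte genes, LYZ at base 745 was well above background on all 10 arrays. Its processed signal was 20.8 and 28.3 in vehicle, 25.9, 23.4, 64.4 and 60.3 in senktide30, and 31.8, 26.4, 68.1 and 84.7 in senktide300. All 4 slide 3 arrays were above the 6 others. After scaling this order was gone, and fewer cells of a type cannot be told apart from less RNA per cell in such samples: the log2 value was -2.03 ± 0.14 in vehicle (SD, n = 2), -2.56 ± 0.32 in senktide30 and -2.51 ± 0.10 in senktide300 (SD, n = 4 each). The difference from vehicle was -0.54 ± 0.23 (SE) for senktide30 and -0.48 ± 0.23 (SE) for senktide300. Within slides 1 and 2, senktide300 minus vehicle was -0.57 and -0.26, and senktide30 minus vehicle was -0.85 and 0.04. The direction depends on the scale, since division by the 75th percentile of all probes gave 0.52 for senktide30 and 0.70 for senktide300. The other LYZ probe, at base 1492 of the same transcript, was not well above background on any array (1.98 to 8.23).

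The run that LYZ shares with TC319485 occurred in these 2 probes alone of the 43653, on either strand. That search covered the array's probes only, and how often the run occurs in bovine transcripts was not examined. The TC319485 probe was also well above background on all 10 arrays, with 42.9 and 86.2 in vehicle, 70.8, 41.6, 148 and 150 in senktide30, and 76.8, 73.4, 210 and 183 in senktide300. Whether the LYZ signal comes in part from that or another transcript was not tested. The 18 probes of the other lysozyme genes had 17 that were never well above background, and the remaining one, of LYZ3, was so on 1 array (senktide300 replicate 3, 10.7).

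PTPRC at base 3598 was well above background on 0 of 2 vehicle arrays, 2 of 4 senktide30 arrays and 3 of 4 senktide300 arrays. Its signal was 3.04 and 13.0 in vehicle, 10.2, 2.96, 59.0 and 48.0 in senktide30, and 13.97, 16.1, 80.7 and 75.2 in senktide300. The 4 highest were again those of slide 3, and here the scaled values kept that order. Of the 8 tested probes of the 10 genes it alone had all scaled slide 3 values above all others, which 2.55% of tested probes had, while COL1A2 at base 4168 had them all below the others, which 13.3% had. The slide 3 mean was 1.27 above that of the senktide arrays of slides 1 and 2 on the log2 scale, against a median of -0.07 over all tested probes. Slide and the vehicle group cannot be told apart for slide 3, which held no vehicle array. The other PTPRC probe, in a second transcript record 278 bases downstream on the chromosome, stayed between 2.30 and 3.497 and was never well above background.

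The TG repeat, searched as TGTGTGTGTGTGTGTG on both strands, occurred in 12 probes of 12 genes, or 0.0275% of all probes. Of these, 11 passed the background flag on 2 or more arrays, against 20.5% of all probes. The others belonged to XKR6, KCNN3, EPHB3, SFN, SCARA3, TYK2, DUSP7, S1PR2, FLVCR2, MTTP and CETN2. Among the 8 probes with TG as written, PTPRC included, all 8 had every slide 3 signal above every other, against 80.6% of all tested probes. Among the 4 with the reverse complement 1 had. After scaling, slide 3 differed from the other senktide arrays by 1.27 in log2 for PTPRC. For the others with TG as written it differed by -0.34 to 0.41. The longest run that PTPRC shared with another gene's probe was 24 bases, with TYK2, which was well above background on 9 arrays. Whether this repeat contributes to the PTPRC signal was not tested.

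**Figure D2:**
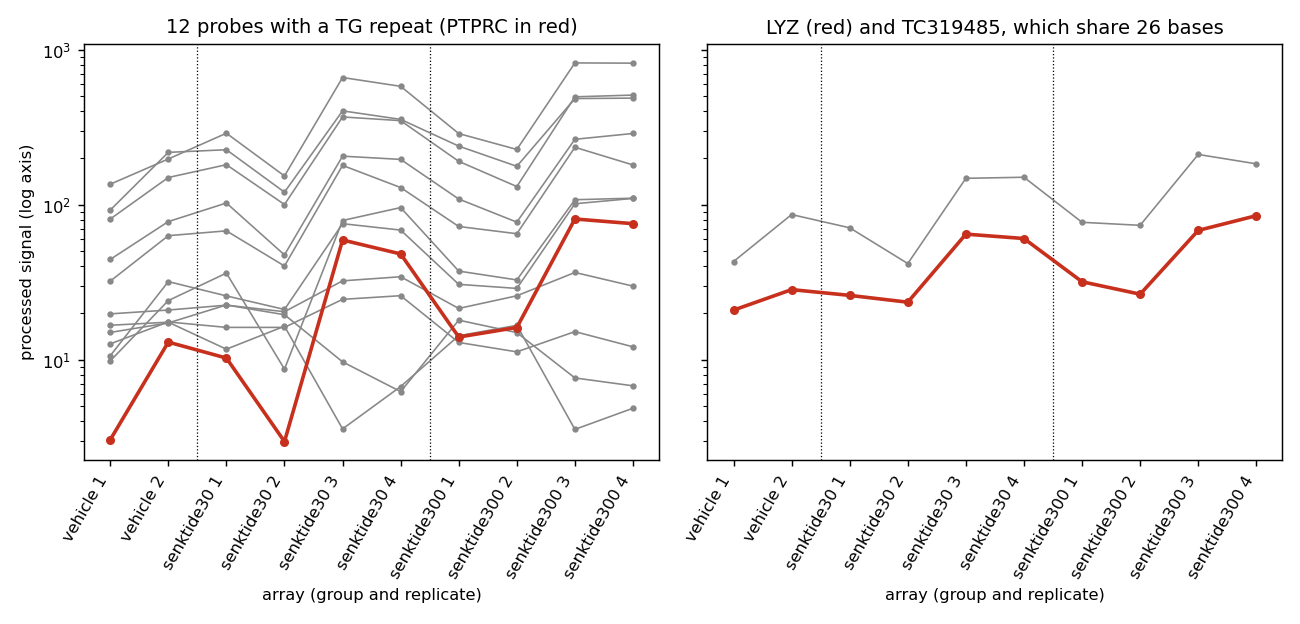
Processed signal (log axis) on the 10 arrays of the 12 probes with a TG repeat (left, PTPRC in red) and of LYZ and TC319485 (right, LYZ in red); a line joins the values of 1 probe. PTPRC was at 48.0 or above on the 4 slide 3 arrays (replicates 3 and 4 of both doses) and at 16.1 or below elsewhere, and LYZ and TC319485 were also highest on slide 3.

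ITGB2 was detected by 1 of its 6 probes, and on slide 3 alone. At base 2739 its signal was 3.47 and 4.21 in vehicle, 3.12, 7.89, 15.7 and 19.4 in senktide30, and 3.57, 6.45, 27.5 and 26.4 in senktide300. Slide 3 values did not overlap the others. On the scaled log2 values they did: the slide 3 mean was 0.60 above that of the other senktide arrays, with SDs of 0.31 and 1.03 (n = 4 each). The probe at base 2733, with 54 bases in common, was between 1.97 and 3.08 on every array. The alpha chains that pair with ITGB2 were also nearly undetected: of 10 probes for ITGAL, ITGAM and ITGAD, 1 of ITGAL was well above background, on 1 array (senktide300 replicate 3, 13.4). S100A8 had signals of 1.97 to 3.66, and both probes of its partner S100A9 were never well above background.

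Of the red cell genes, HBA was well above background on the 4 slide 3 arrays alone. Its signal was 5.31 and 13.8 in vehicle, 12.7, 14.5, 30.3 and 49.4 in senktide30, and 10.8, 4.85, 29.6 and 33.2 in senktide300. The slide 3 arrays lay above all others, while the scaled values of slide 3 overlapped the others, with a mean 0.26 higher in log2 than on the other senktide arrays. HBB, the chain that pairs with it in adult haemoglobin, was at 2.88 to 9.19 and never well above background. Of 10 probes for other haemoglobin chains, 1 of HBG was well above background, on 1 array (senktide30 replicate 1, 41.8).

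That a signal was higher on every slide 3 array than on every other was the common pattern on these arrays. It held for 80.6% of all tested probes and for 4 of the 8 tested probes here (LYZ, PTPRC, ITGB2 and HBA). The 75th percentile over probes detected on all arrays was 400.4 to 481 on slide 3, against 79.4 to 179 on slides 1 and 2. The lowest signal that was well above background was 9.47 to 11.1 on slide 3 and 10.6 to 14.9 on slides 1 and 2. A missing flag on slides 1 and 2 is an upper limit on a signal, not a level.

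**Figure D3:**
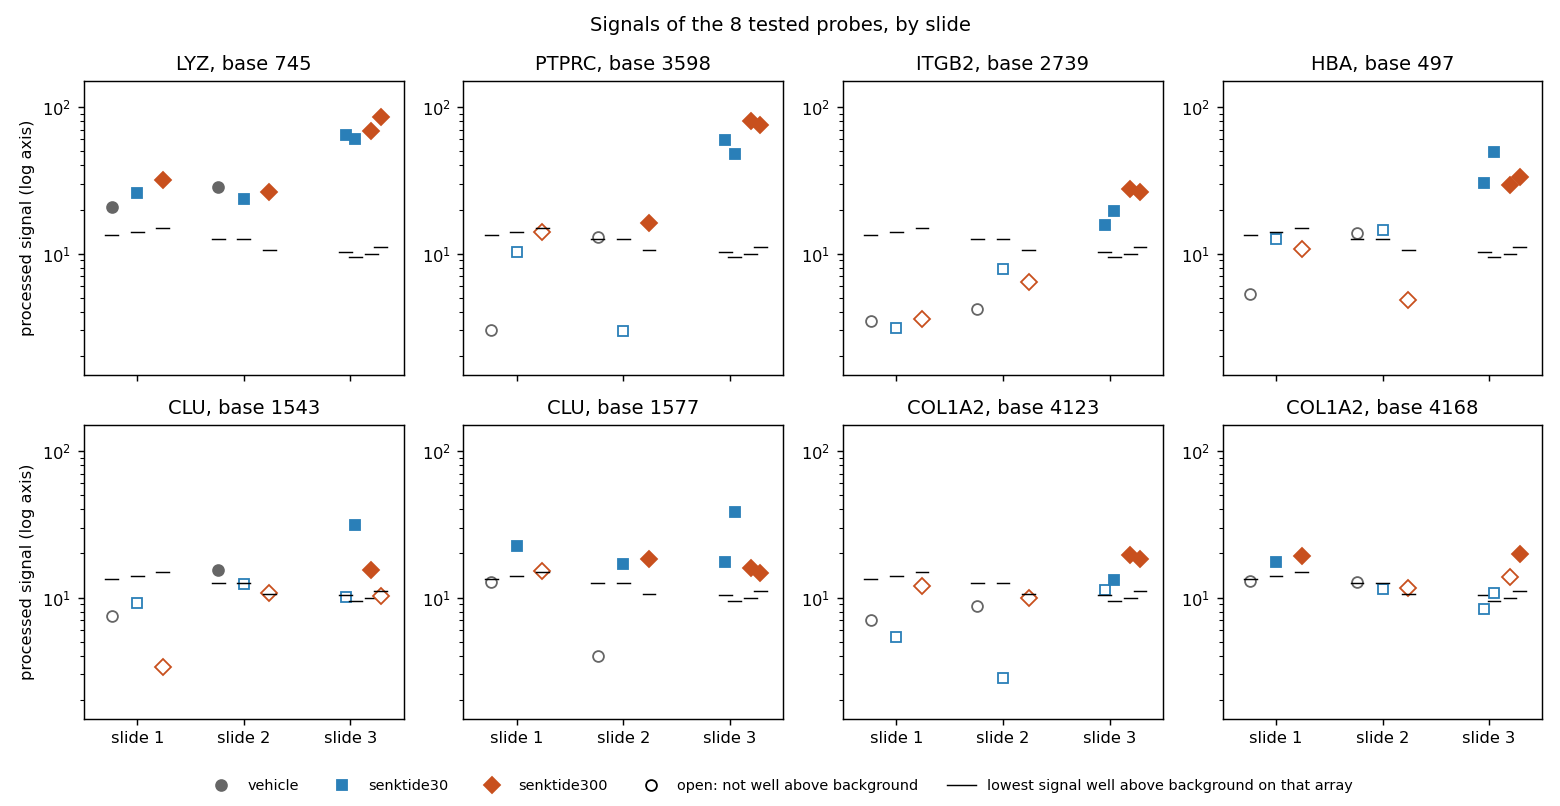
Processed signal (log axis) of the 8 tested probes of the 6 detected genes on slides 1, 2 and 3, with filled symbols where the probe was well above background and a short line at the lowest signal well above background on that array. LYZ, PTPRC, ITGB2 and HBA were higher on all 4 slide 3 arrays than elsewhere, and the CLU and COL1A2 probes were not.

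For CLU the processed signals of slide 3 overlapped those of slides 1 and 2. At base 1577 it was 12.7 and 4.00 in vehicle, 22.3, 16.9, 17.4 and 38.5 in senktide30, and 15.3, 18.2, 16.0 and 14.8 in senktide300. It was well above background on 0 of 2 vehicle arrays, 4 of 4 senktide30 arrays and 3 of 4 senktide300 arrays. At base 1543 it was so on 1 array of each group, namely vehicle replicate 2 (15.4), senktide30 replicate 4 (31.3) and senktide300 replicate 3 (15.5). So the array on which one CLU probe reached 15.4 in vehicle had 4.00 at the other. Both probes were highest on senktide30 replicate 4. After scaling, the slide 3 mean of the probe at base 1577 was lower than that of the other senktide arrays, with a log2 difference of -1.41 (SDs of 0.71 on slide 3 and 0.41 on the others, n = 4 each). At base 1543 it was -0.65 (SDs of 0.83 and 1.16). With the 75th percentile of all probes these were 0.08 and 0.84, so the direction depends on the scale. The CLU probes at bases 236 and 1360 were never well above background. OVGP1, the more specific marker of the oviduct, had 3 probes at 1.98 to 7.69 and none well above background.

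COL1A2 was detected by a pair of probes that overlap by 15 bases, but not by its probe further 3′ at base 4308. At base 4123 (chr4:12054392-12054451, plus strand) its signal was 7.00 and 8.72 in vehicle, 5.41, 2.84, 11.3 and 13.3 in senktide30, and 11.98, 9.98, 19.5 and 18.4 in senktide300. It was well above background on senktide30 replicate 4 and senktide300 replicates 3 and 4. At base 4168 (chr4:12054437-12054495, plus strand) the signal was 8.36 to 19.8 on all arrays and well above background on senktide30 replicate 1 and senktide300 replicates 1 and 4. Its scaled log2 values were -5.58 to -4.60 on slide 3 and -3.57 to -2.62 on slides 1 and 2, without overlap. The slide 3 mean differed by -1.77 from that of the other senktide arrays (SDs of 0.42 and 0.20, n = 4 each), and by -0.28 with the 75th percentile of all probes. The 4 other COL1A2 probes and the 5 COL1A1 probes, for the chain found in larger share in type I collagen, were never well above background.

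The probes of a gene thus often disagreed. LYZ, PTPRC, ITGB2, CLU and COL1A2, the 5 detected genes with several probes, each had at least 1 probe that was on no array well above background. This was so for 82.5% of the 5044 detected genes with several probes on this array. HBA, with its single probe, was the only gene for which all probes were well above background on the same array.

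The lowest fold against vehicle was estimated for probes flagged in a senktide group and below the flag on both vehicle arrays. This choice favours senktide over vehicle and uses the flag by which the genes were chosen. The estimates are therefore a description and carry no test. The senktide mean took every array of the group, with signals below the flag at their value. The estimate is therefore a lower bound only where the whole group passed, as for CLU at base 1577 in senktide30. Under the scale used here it was below 1 for PTPRC, ITGB2, HBA, CLU at base 1577 and both COL1A2 probes at both doses, so no fold is given. For PTPRC, division by the 75th percentile of all probes would have made it 2.17-fold for senktide300 and 1.15-fold for senktide30, with 3 and 2 arrays flagged. On that scale the median difference from vehicle over all tested probes was itself 1.06 in log2 for senktide300 and 0.95 for senktide30. The folds on that scale include this shift. Under the scale used here the PTPRC estimate for senktide300 passed 1 without senktide300 replicate 1 (1.13) or without vehicle replicate 1 (1.22). With the 75th percentile of all probes the estimate also passed 1 for HBA in senktide30 (1.49) and for COL1A2 at base 4168 in senktide300 (1.01). For CLU at base 1577 it did so in senktide300 (1.03) and senktide30 (1.53). Across all probes limma called 1 of 8938 (0.0112%) in senktide300 against vehicle, no member of the 10 genes, and 0 in senktide30 against vehicle (1236 and 1006 at an unadjusted p under 0.05, or 13.8% and 11.3%).

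The contrast of the senktide doses is balanced over the slides. Limma called 0 of 8938 probes in senktide300 against senktide30 (268 at an unadjusted p under 0.05, or 3.00%), and none of the 8 tested probes of the 10 genes. Their log2 differences lay between -0.85 and 0.85. Two-sided adjusted p was 0.999 for each by limma with Benjamini-Hochberg adjustment over all tested probes, and 0.818 to 1.00 over all alternatives tried.

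The probes whose dose groups did not overlap were HBA and COL1A2 at base 4123, 2 of 8, against 2.70% of all tested probes. HBA averaged -4.15 ± 0.47 in senktide300 and -3.34 ± 0.51 in senktide30 (log2 scaled, SD, n = 4 each). The difference was -0.81 ± 0.33 (SE), with -0.24, -2.06 and -0.46 within slides 1, 2 and 3. The dose groups of HBA nearly met, with a highest senktide300 value of -3.832 and a lowest senktide30 value of -3.820. COL1A2 at base 4123 averaged -4.21 ± 0.43 in senktide300 and -5.06 ± 0.09 in senktide30 (SD, n = 4 each). The difference was 0.85 ± 0.22 (SE), with 1.14, 1.34 and 0.47 within slides 1, 2 and 3. Neither probe was well above background on slides 1 and 2, where these differences are between signals not well above background. With a floor at the lowest signal well above background the difference was -0.44 for HBA and 0.07 for COL1A2, and with normexp and quantile normalization it was -0.17 and 0.13. The overlapping COL1A2 probe at base 4168 differed by 0.25 ± 0.62 (SE), with 0.14, -0.46 and 0.65 within slides 1, 2 and 3.

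The leukocyte probes differed less than their error or little more than it. The difference was 0.06 ± 0.19 (SE) for LYZ, 0.80 ± 0.54 for PTPRC and 0.09 ± 0.49 for ITGB2. PTPRC was higher in senktide300 within all 3 slides, by 0.45, 1.97 and 0.39, and its difference was 0.18 with the floor and 0.26 with normexp and quantile normalization. CLU was lower in senktide300 within all 3 slides at both probes, with differences of -0.85 ± 0.55 at base 1543 and -0.69 ± 0.65 at base 1577 (SE). With normexp and quantile normalization they were -0.16 and -0.14, and with the floor -0.46 and -0.69.

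**Figure D4:**
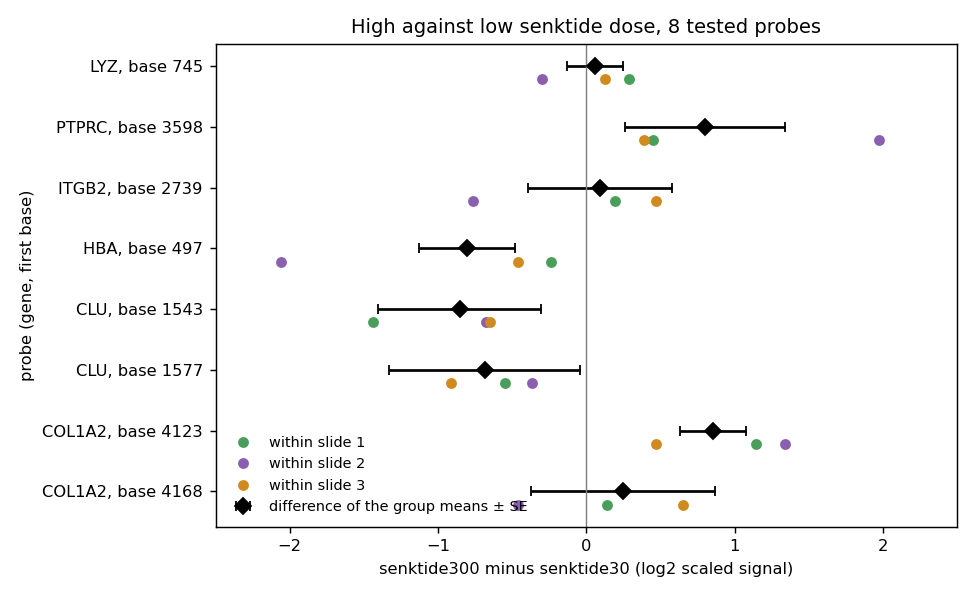
Difference of senktide300 minus senktide30 in log2 scaled signal for the 8 tested probes, as the difference of the group means with its SE (black diamonds, n = 4 each) and within each slide (coloured points). The differences lie between -0.85 and 0.85, and the slides agree in sign for PTPRC, HBA, both CLU probes and COL1A2 at base 4123.

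The genes whose scaled values went most closely with each member were taken from 5237 named genes with a tested probe, over the 10 arrays, as a description, since arrays on 1 slide share more than a member's level. With LYZ these were COG2 (Pearson r = 0.96), FANCI, AVP, ATP13A2 and DBR1 (0.93). With PTPRC they were BUD13 (0.93), MRPL47, SNX1, PITPNB and PIGT (0.92), and with ITGB2 HRH1 (0.97), BUB1B, C3H1orf52, COQ10B and NPL (0.90). With HBA they were MRPS18B (0.92), KBTBD2, BTBD10, YTHDF2 and PAAF1 (0.86), and with CLU at base 1577 IFTAP (0.93), PPHLN1, TMED3, TSR1 and P4HA2 (0.91). With the 75th percentile of all probes r was 0.59 (IFTAP) to 0.85 (P4HA2) for the 5 genes named with CLU and 0.90 to 0.99 for the 20 others. Of these 25 genes 0 stood in a marker list, from which no conclusion is drawn. Members were left out of the genes compared. Of the 144 genes with a probe in the lists of other cell types, only 30 were detected on any array.

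The wider lists of markers are given by their counts beside those of the whole array. They were chosen with earlier results of these data known, so the contrast between lists is a description. Of 144 genes with a probe in 11 lists of other cell types, 30 (20.8%) were well above background on at least 1 array, against 40.8% of all named genes, and 114 on none. Over their 342 probes, 3.42% of pairs of a probe and an array were well above background, against 13.7% for all probes. In the embryo list, 10 of 12 genes were detected, and 34.4% of its probes on each vehicle array and 34.4% to 46.9% on the arrays of each senktide group.

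The leukocyte list had 6 of 19 genes detected on any array, 2 in vehicle, 6 in senktide30 and 5 in senktide300. Its share of probes was 2.38% to 4.76% in vehicle and 4.76% to 11.9% in each senktide group. All 4 senktide arrays of slides 1 and 2 were at 4.76%, equal to vehicle replicate 1, and the slide 3 arrays were at 9.52% to 11.9%. For all probes this share was 7.16% to 9.42% in vehicle, 8.76% to 19.5% in senktide30 and 10.46% to 19.6% in senktide300. The list's probes held 0.03% to 0.05% of the summed signal of an array. CD48, a surface protein of lymphocytes and monocytes, was the one gene of it detected throughout, with 35.8 and 58.1 in vehicle, 108, 49.2, 235 and 264 in senktide30, and 108, 96.2, 208 and 269.9 in senktide300. The neutrophil list had 1 of 15 genes detected, the macrophage list 4 of 15 and the lymphocyte list 4 of 17.

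In the lymphocyte list, CD3G and CD4, chains of the T cell receptor complex and its co-receptor, were each detected by 1 probe. CD3G had 21.9 and 20.9 in vehicle, well above background on both, 8.97 to 13.6 in senktide30, on none, and 7.18 to 21.1 in senktide300, on 1. Its 2 other probes were never well above background. CD4 had 15.8 and 14.7 in vehicle, on none, 18.6 to 25.8 in senktide30, on all 4, and 13.2 to 27.7 in senktide300, on 2. Its 3 other probes were never well above background. The other detected genes of the list, named after their values were seen, were CD3D, another chain of that complex, and LCK, a kinase of T cells. CD3D was detected by 2 of 3 probes, on 1 array of vehicle, 3 of senktide30 and 3 of senktide300. LCK was detected by 2 of 5 probes, on 0, 1 and 1 arrays of these groups.

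The red cell list had 1 of 11 genes detected, which was HBA, and its markers HBB, ALAS2 and AHSP were on no array. The platelet list had 0 of 4 genes and the endothelium list 1 of 12. The list for uterine or oviduct epithelium had 4 of 13, CLU among them, and the stroma and smooth muscle list 5 of 16, COL1A2 among them. Granulosa and cumulus cells had 2 of 13 and sperm 2 of 9. Of the 24 detected genes with several probes in these lists, 17 were detected by 1 probe alone.

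**Figure D5:**
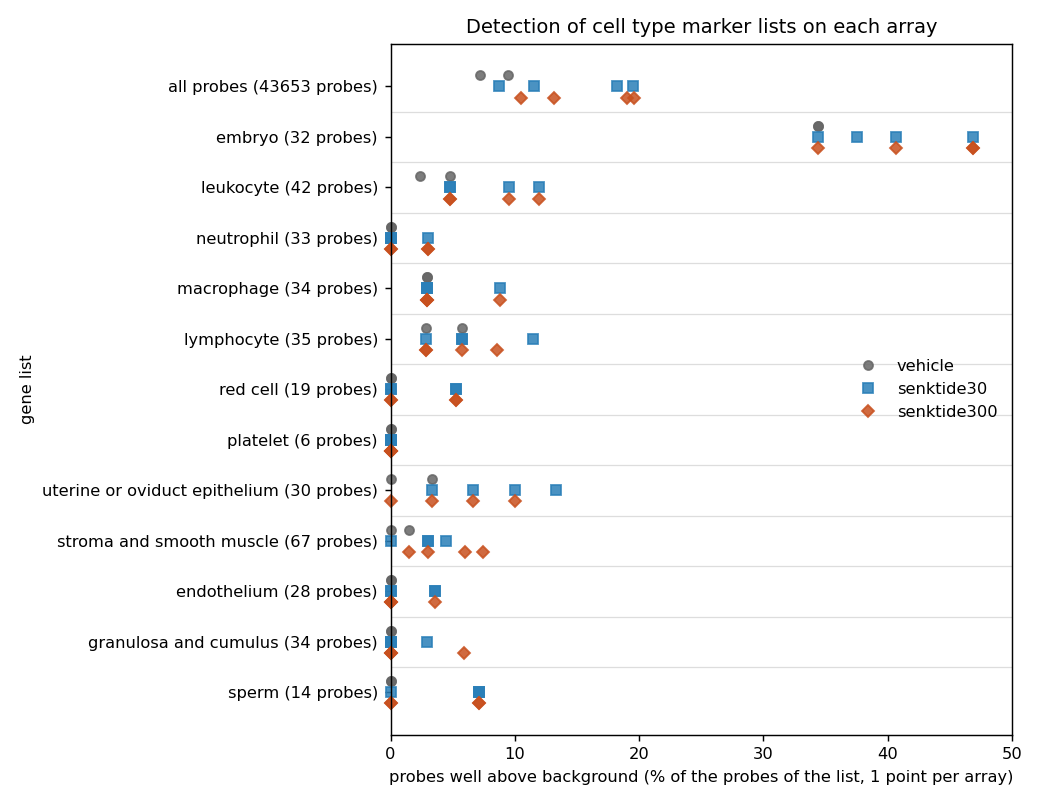
Share of each list's probes that were well above background on each array (% of the list's probes, 1 point per array, by group), with all probes and the embryo list above. The embryo list lies at 34.4% to 46.9%, all probes at 7.16% to 19.6%, and the lists of other cell types at 0% to 13.3%. All lists were chosen with earlier results of these data known.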

How the data were processed

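The total RNA of each of the 10 embryo samples carried Cy3 label and went onto 1 single-colour Agilent bovine array, per the labels' protocols. The deposited intensity values are processed signals of Agilent Feature Extraction, version 11.5.1.1 per the file headers and 10.5.1.1 per the submitters' processing notes; the signals are background-subtracted and not normalized between arrays. No spot was saturated, no probe of the 10 genes had an outlier spot, and all arrays had 1 scan day. The authors' deposited log2 table holds the same signals divided by the array's 75th percentile of all probes, then centred on each probe's median, since at least 99.96% of values in every column came within 0.01 of that, and its column medians were 0.22 and 0.12 in vehicle, 0.04, 0.07, -0.13 and -0.31 in senktide30, and 0.16, -0.18, -0.28 and -0.23 in senktide300.

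Here log2 signals were reduced by each array's 75th percentile over the 2491 probes flagged well above background on every array, spots of a probe were averaged, and outlier spots were left out. Probes well above background on at least 2 arrays were fitted with limma 3.58.1 in R 4.3.3, with the 3 groups in 1 fit and Benjamini-Hochberg adjustment at 0.05, and the fit was tested on simulated data. Of the 8938 tested probes, 3 had a missing value on an array. Scaling to other percentiles moved all fold changes against vehicle together: the median difference of senktide300 from vehicle was -0.11 here and 1.06 with the 75th percentile of all probes. Probes were named through RefSeq accessions and symbols, and 10713 of 43653 had no name.

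All members with every probe were named, the 5 genes most correlated with each member detected on at least 4 arrays, and, of each marker list, genes with a probe well above background on all arrays of a group. Other lysozymes, haemoglobins, integrin chains and probes with shared sequence were looked at after the members' values were seen. The members and lists were chosen with earlier results of these data known. Arrays of both doses with the same replicate number deviated together (r = 0.49, 0.49, 0.56 and 0.57 for numbers 1 to 4), and the replicate block was run as the paired fit. Different numbers on slide 3 also had r = 0.49 and 0.54, slides 1 and 2 had 0.42 and 0.41 with each other, and slide 3 had -0.53 to -0.47 with slides 1 and 2, so pairing by number and sharing a slide cannot be told apart. The number of arrays limits the precision.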

Additional observations from a re-analysis of the deposited data

How the results depend on the processing

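Alternatives changed the number of probes past the threshold more than any member. The count for senktide300 against vehicle was 1; it was 142 with quantile normalization, 115 with normexp and quantile normalization, 3 among probes that passed the background flag on 4 or more arrays, and 0 with the 75th percentile or median of all probes, the authors' table, no filter, a floor, slide as a block, the replicate block or slides 1 and 2 only. Without 1 replicate it was 0 to 50, with 32 and 50 without vehicle replicate 1 and 2. For senktide30 against vehicle the count was 0, and 107, 69 and 3 under the first 3 of these alternatives; without 1 replicate it was 0 to 36, with 34 and 36 without vehicle replicate 1 and 2. The vehicle arrays number 2, and the cause was not tested. For senktide300 against senktide30 the count was 0 and 1 with the replicate block, which called no member (lowest adjusted p 0.981).

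Members detected numbered 2, 6 and 6 in vehicle, senktide30 and senktide300. With the looser flag for positive and significant signals they were 8, 10 and 9; with all probes of a gene required on the same array, 0, 1 and 1; on slides 1 and 2 only, 2, 3 and 4; and on at least 2 arrays, 1, 6 and 6. Without vehicle replicate 2 the vehicle count was 1, and without other replicates the counts were 2, 6 and 6.

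Of 207 recomputed member differences 188 kept their direction and 19 reversed, none past the threshold in any setting. On the scale of the 75th percentile, on that of the median over all probes and in the authors' table, LYZ against vehicle was 0.70, 0.95 and 0.69 for senktide300 and 0.52, 0.79 and 0.52 for senktide30. Between the doses LYZ was -0.045 with normexp and -0.0073 on slides 1 and 2, and ITGB2 -0.0042 and -0.29, while COL1A2 at base 4168 was -0.16 on slides 1 and 2. Without 1 replicate these differences ranged between -0.015 and 0.22 for LYZ, -0.31 and 0.46 for ITGB2 and -0.17 and 0.65 for COL1A2. With the floor and with normexp, the dose differences were 0.07 and 0.13 for COL1A2 at base 4123, 0.13 and 0.06 for COL1A2 at base 4168 and -0.46 and -0.16 for CLU at base 1543. Differences from vehicle of the other members, not well above background on 1 or both vehicle arrays, were not recomputed.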
